A study of Mus musculus with 20 samples.

Results

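The transcripts described here encode the receptors and intracellular mediators of transforming growth factor beta (TGF-beta) in mouse thymocytes, and the measurement is N6-methyladenosine (m6A), a methyl mark on adenosines within messenger RNA. The 8 genes are Tgfbr1, Tgfbr2, Smad2, Smad3, Smad4, Smad7, Ski and Skil, and their peaks were taken by the gene symbol that the authors' annotation gives. That rule found 19 of 12542 peaks in 6 of the 8 genes in the authors' deposited table for invariant natural killer T (iNKT) cells, and 16 of 13450 peaks in 7 of the 8 genes in that for double-positive (DP) thymocytes. Of these genes, 5 had a peak in both tables.

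TGF-beta binds the type II receptor (Tgfbr2), which activates the type I receptor kinase (Tgfbr1). The receptor phosphorylates Smad2 and Smad3, which join Smad4 and enter the nucleus to regulate transcription, while Smad7 blocks the receptor and Ski and SnoN (the product of Skil) hold back Smad-driven transcription. In the thymus, TGF-beta signalling is known to take part in the development of iNKT cells and of regulatory T cells. The mark is written by a complex whose catalytic subunit is Mettl3, and it marks transcripts for reader proteins that can alter their splicing, translation and decay.

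Live (7AAD-negative) cells were sorted from thymi of mice aged 6 to 8 weeks, either Mettl3fl/flCD4-cre (called Mettl3-deleted here) or wild type (WT) on the C57BL/6 strain named for both genotypes. The Cre recombinase is driven by Cd4 regulatory sequences, which thymocytes turn on around the DP stage, so the deletion is not limited to iNKT cells. The iNKT cells were CD1d tetramer-positive and T cell receptor beta-positive, and Mettl3-deleted and WT cells gave 3 input and 3 m6A immunoprecipitation libraries each. The DP cells, tetramer-negative and positive for CD4 and CD8, gave 2 of each library per genotype.

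The deposited tables hold 1 value per peak and comparison and none per library, so no value per replicate, standard deviation or depth can be given and no difference below can be set against the spread between replicates. Each log2 fold change compares methylation in Mettl3-deleted and WT cells of 1 cell type, and its false discovery rate (FDR) is the authors' own, adjusted over the whole table. The sign is not stated in the files. A negative value is read as likely lower in Mettl3-deleted cells, because the gene lists that the authors deposited under the same name as each table of differing peaks hold 5339 of the 5343 iNKT genes and 4336 of the 4337 DP genes that have a negative peak in the authors' deposited table, and because the deletion removes an m6A writer. "Lower" and "higher" refer to that likely direction. A peak passed at an FDR of at most 0.05, and its fold enrichment is the authors' linear ratio of immunoprecipitate over input. Transcript levels were not analysed here, and a gene without a peak is not shown to be unmethylated.

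The sorted populations could be checked only through peaks, which are not expression. The authors' deposited table for iNKT cells had peaks in 7 of 7 iNKT marker genes, Zbtb16 and Tbx21 among them, and that for DP cells in 2 of 7. For DP thymocyte markers the count was 4 of 7 genes in each, with Cd8a, Cd8b1 and Rag1 in both. None of 5 thymic epithelial and stromal markers had a peak in either, and 1 of 5 myeloid and B cell markers did in each. No peak was named Mettl3 in the authors' deposited table for either cell type, so the deletion could not be checked.

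One stretch of sequence under a member peak can be shown. The iNKT peak nearest the start of Smad3 covers chr9:63757904-63757994 on the minus strand of mm10, the first 91 nt of the gene. The RefSeq promoter table (GRCm38.p6, the same assembly) holds the first 50 transcribed bases, of which the last 30, at chr9:63757945-63757974, are given 5′ to 3′ on the transcript strand because the start of a Smad3 transcript lies inside an immunoprecipitated region. Capitals mark AAACC and AAACT, which are words of the m6A consensus.
Smad3: cccgtgcggAAACCcAAACTttctactgcc

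The search, on the transcript strand only, used 11 words: GGACT or GGACA or GGACC or AGACT or AGACA or AGACC or TGACT or AAACT or AAACA or AAACC, and the shorter GGAC, which the first 3 contain. In the 50 Smad3 bases AAACT was found 1 time, as was AAACC and as was AAACA. The words AAACA plus AAACC were added to the search after the sequence was seen. Among the same 50 bases of 32851 RefSeq windows, AAACT was present in 3.61%, AAACC in 3.97% and AAACA in 4.59%. A match is a description of letters and not a methylated site.

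In iNKT cells the Smad, Ski and Skil peaks that passed were all lower in Mettl3-deleted than in WT cells. The only peak of a receptor transcript was higher. Of the 19 member peaks in the authors' deposited table, 10 were lower, 1 was higher and 8 did not pass. The background in the authors' deposited table was 19.8% lower and 5.84% higher among all iNKT peaks (25.7% in either direction). At an unadjusted p of at most 0.05, 11 of the 19 member peaks were reached, against 30.1% of all iNKT peaks of the authors' deposited table. The lower peaks lay in 5 of the 6 genes with a peak (Smad2, Smad3, Smad7, Ski and Skil), where 26.2% of all iNKT genes with a peak had a lower one. A gene counts if any of its peaks is lower, and the members had 3.17 iNKT peaks per gene against 1.85 over all genes. The part of that difference in the gene count was not tested. In the authors' deposited table the median log2 fold change of the 19 peaks was -3.16, against -0.98 over all iNKT peaks, so the whole table is shifted below 0.

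**Figure D1:**
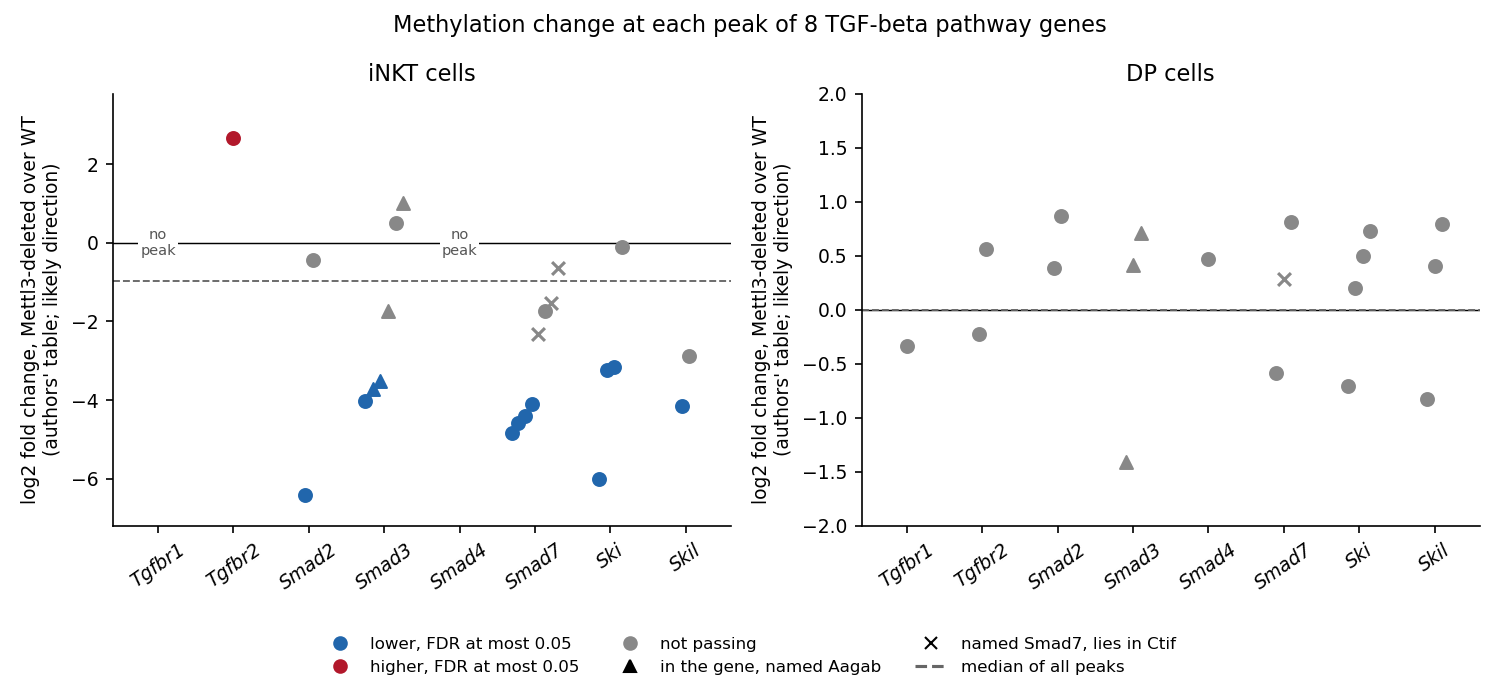
Log2 fold change of each peak in Mettl3-deleted over WT cells (vertical axis, authors' values, likely direction) for the 8 genes, with iNKT cells on the left and DP cells on the right, on different vertical scales. Each symbol is 1 peak, coloured by whether it passed an FDR of 0.05, triangles are peaks that lie in Smad3 but are named Aagab, crosses are peaks named Smad7 that lie in Ctif, and the dashed line is the median of all peaks; 10 circles and 2 triangles are lower in iNKT cells and none passed in DP cells.

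Among the receptors, Tgfbr2, the ligand-binding type II receptor, carried the 1 higher peak. It spans 241 nt of the 3' untranslated region (UTR), at chr9:116088611-116088851 on the minus strand, 916 nt before the 3' end of the gene. In the authors' deposited table its log2 fold change was 2.66 (FDR 1.6e-13) with a fold enrichment of 11.6, and 93.4% of all iNKT peaks had a lower log2 fold change. This was the only member peak that passed with a positive sign. Tgfbr1, the type I receptor kinase, had no iNKT peak in the authors' deposited table.

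Of the receptor-activated Smads, Smad2 had the largest change of the members. Its 239 nt peak at chr18:76262477-76262715, which the annotation places in the 5' UTR, had a log2 fold change of -6.42 per the authors' deposited table (FDR 2.5e-12, fold enrichment 8.36). Only 0.7% of all iNKT peaks in the authors' deposited table had a lower value. The second Smad2 peak, 579 nt after the start of the gene, did not pass per the authors' deposited table (-0.45, FDR 0.76, fold enrichment 7.83). The 2 peaks had close fold enrichments but not the same strength, with a log10 of the peak p of -237 for the lower peak and -8.22 for the other in the authors' deposited table.

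Smad3 showed a similar split near its start. A spliced peak of 270 nt that begins 270 nt after the start of the gene and joins 2 blocks across an intron (chr9:63751061-63757724) had a log2 fold change of -4.03 per the authors' deposited table (FDR 3.0e-06, fold enrichment 9.56). The peak over the first 91 nt, whose sequence is given above, did not pass per the authors' deposited table (0.51, FDR 0.76, fold enrichment 5.29). The 2 peaks are neighbours near the start of the gene, and no test compares them with each other. The log10 of the peak p was -677 for the first and -9.31 for the second in the authors' deposited table.

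The symbol rule misses the 3' end of Smad3. On the minus strand, 4 iNKT peaks and 3 DP peaks lie near the 3' end of Smad3 but are named in the authors' deposited table after Aagab, a neighbouring gene on the plus strand that ends before them (chr9:63602630-63644590 in RefSeq, against chr9:63646766-63757994 for Smad3). In iNKT cells the peak 1858 nt before the 3' end had a log2 fold change of -3.52 per the authors' deposited table (FDR 0.00021, fold enrichment 82.6). Its neighbour 3236 nt before the 3' end had -3.73 in the authors' deposited table (FDR 0.0042, fold enrichment 42.7). Among the iNKT peaks that lie in the 8 genes, these are the highest and the third highest enrichment. The other 2 iNKT peaks, nearer the 3' end, were weakly enriched in the authors' deposited table (1.59 and 1.86) and did not pass (-1.74, FDR 0.24, and 1.02, FDR 0.30). With them Smad3 had 3 lower peaks of 6.

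Smad4, the common partner of the activated Smads, had no iNKT peak in the authors' deposited table. In DP cells it had 1 peak, of 270 nt in the 5' UTR class (chr18:73677744-73678013, minus strand). That peak had a fold enrichment of 6.17 and a log2 fold change of 0.47 per the authors' deposited table (FDR 0.60). The effect of the deletion on Smad4 in iNKT cells therefore has no value here.

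Smad7, the inhibitory Smad, had the most lower peaks of any member. Of its peaks, 3 in the 5' UTR and 1 in its last exon passed, with log2 fold changes between -4.84 and -4.10 in the authors' deposited table. The last-exon peak (chr18:75394019-75394229) had -4.84 in the authors' deposited table, with an FDR of 1.6e-11 and a fold enrichment of 12. The longest, 540 nt at chr18:75368846-75369385, had -4.10, an FDR of 3.2e-18 and a fold enrichment of 70.5 in the authors' deposited table. The other 2 lower peaks, at chr18:75367529-75367739 and chr18:75367858-75368008, had -4.58 (FDR 6.5e-05) and -4.40 (FDR 4.7e-06) in the authors' deposited table. These 4 changes lie within 1 log2 unit of each other although the fold enrichments in the authors' deposited table run from 1.44 to 70.5. A 91 nt peak in the 3' UTR did not pass per the authors' deposited table (-1.74, FDR 0.58).

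A further 3 iNKT peaks and 1 DP peak carry the symbol Smad7 in the authors' deposited table but lie on the minus strand within Ctif (chr18:75431205-75697696), a neighbouring gene beyond Smad7 (chr18:75367365-75395935). In iNKT cells the authors' deposited table gives them -2.32, -1.54 and -0.65 (log2 fold change), and none passed (FDR 0.76 each). Counted by position in place of symbol, Smad7 had 4 lower peaks of 5 and the members together had 12 lower peaks of 20 in iNKT cells, with the higher Tgfbr2 peak unchanged. The median log2 fold change was then -3.375 in the authors' deposited table.

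Of the nuclear repressors, Ski had 3 lower iNKT peaks of 4. The strongest fall was in the 3' UTR, 2033 nt before the 3' end, over 390 nt at chr4:155156108-155156497, with a log2 fold change of -6.01 per the authors' deposited table (FDR 6.3e-15, fold enrichment 31.0). The next peak upstream, 420 nt at chr4:155156646-155157065, had -3.23 in the authors' deposited table (FDR 1.0e-09, fold enrichment 3.8). A peak in the first kilobase of the gene, classed as exon 2 (chr4:155221605-155221815), had -3.16 in the authors' deposited table (FDR 6.3e-07, fold enrichment 2.83). The Ski peak nearest the 3' end, 149 nt before it, had -0.09 per the authors' deposited table, without passing (FDR 0.76, fold enrichment 3.53). The log10 of its peak p was -22.8, against -1120, -106 and -73.9 for the 3 lower peaks in the authors' deposited table. Within this 1 transcript the log2 fold changes thus ran from close to 0 to the second most negative of all member peaks.

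Skil, which encodes the Ski relative SnoN, had 1 lower iNKT peak of 2. It covers 151 nt classed as 3' UTR at chr3:31118478-31118628, with a log2 fold change of -4.16 per the authors' deposited table (FDR 1.0e-16). Its fold enrichment of 2.27 was among the lowest of the members, and 5.9% of all iNKT peaks had a lower one in the authors' deposited table. The second, in exon 2 (chr3:31097949-31098099), did not pass although its value was also far below 0 in the authors' deposited table (-2.87, FDR 0.16, fold enrichment 3.45).

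**Figure D2:**
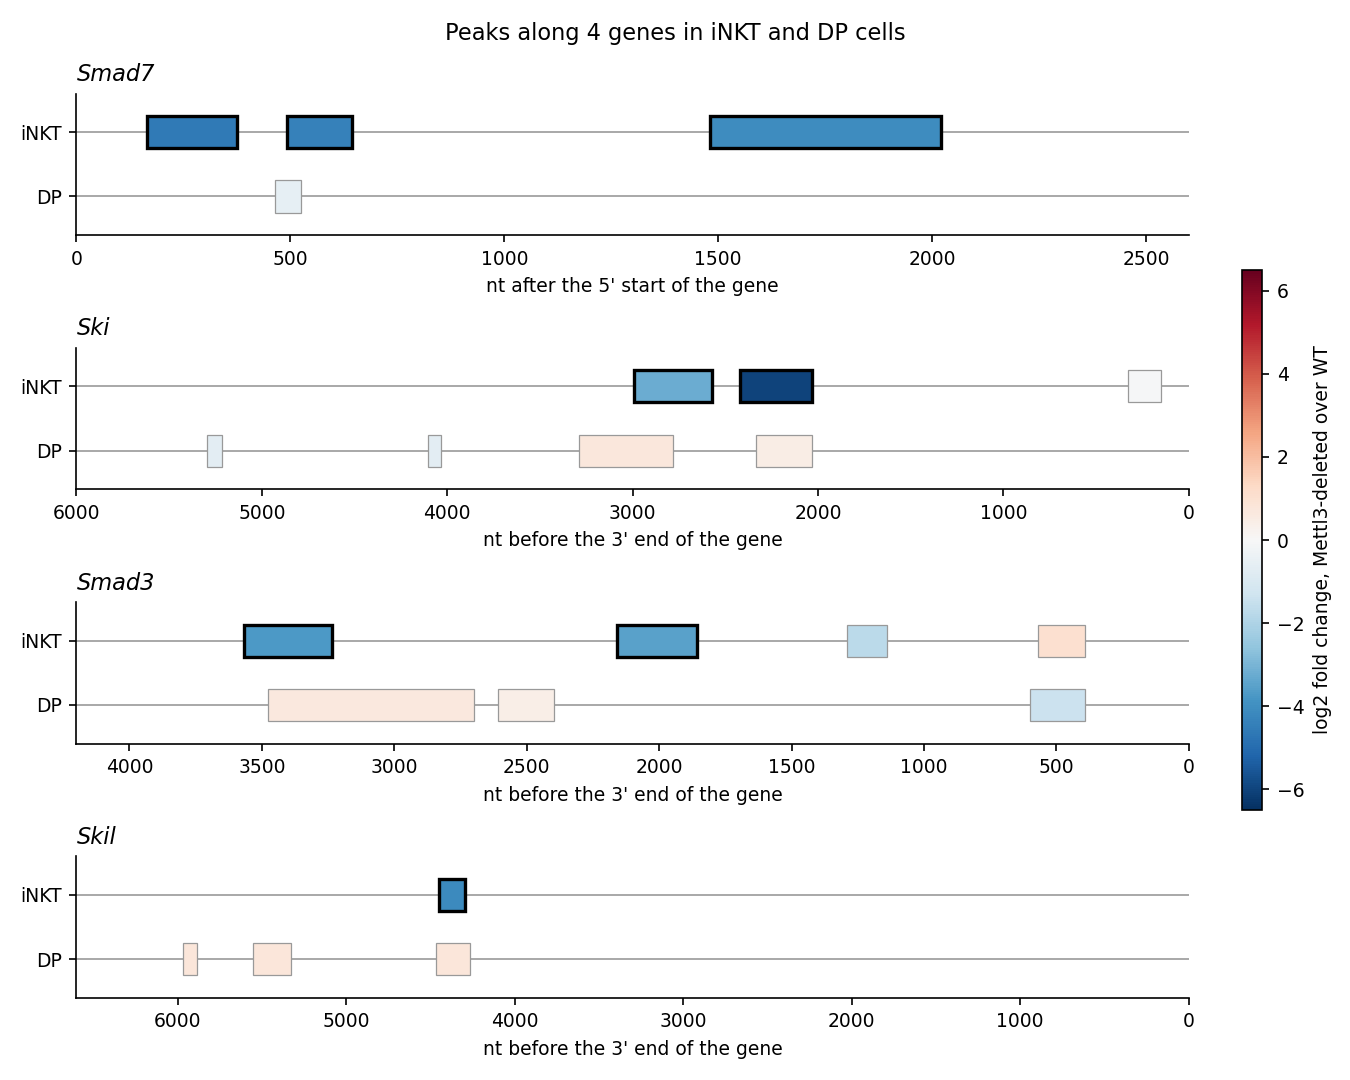
Peaks along the first part of Smad7 and the last part of Ski, Smad3 and Skil (horizontal axes in nt from the start or the 3' end of the gene), with iNKT cells above DP cells in each panel. Boxes are the exonic blocks of peaks, coloured by log2 fold change in Mettl3-deleted over WT cells, with a thick outline where the FDR was at most 0.05; the thick outlines are all in the iNKT rows, and the Ski peak 2033 nt before the 3' end is the darkest.

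Passing went with the strength of a peak, taken as the authors' p for the peak itself. Of the 19 iNKT member peaks, 11 had a peak p of at most 1e-50 in the authors' deposited table, a bound chosen after the values were seen, and 9 of these were lower and 1 was higher. Among the other 8 peaks 1 was lower, the Smad7 peak with a fold enrichment of 1.44. Of all iNKT peaks, 53.4% of those within that bound and 3.49% of the others were lower, and 57.9% of member peaks against 32.7% of all peaks lay within the bound in the authors' deposited table. The part of peak strength in the member counts was not tested.

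**Figure D3:**
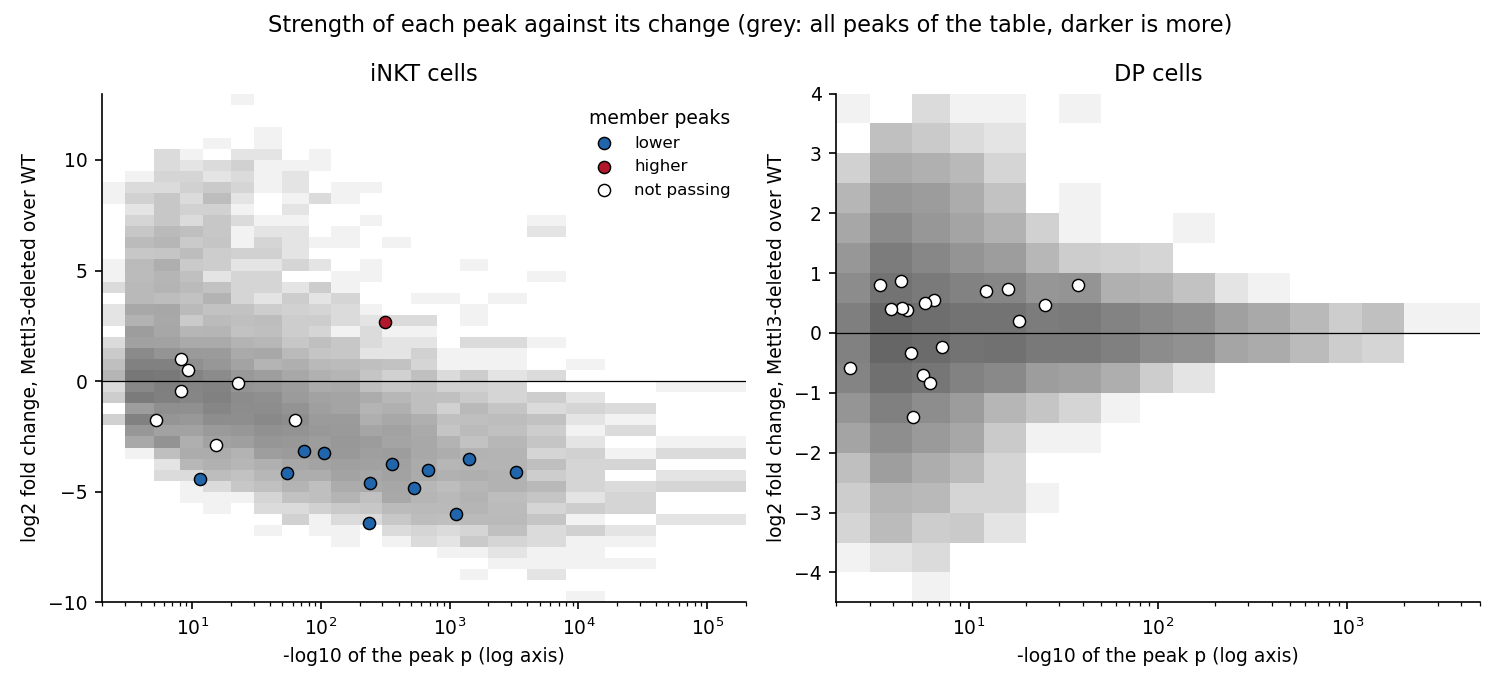
Log2 fold change in Mettl3-deleted over WT cells (vertical axis) against the strength of the peak (horizontal log axis, -log10 of the authors' peak p), with iNKT cells on the left and DP cells on the right, on different scales. Circles are peaks that lie in the 8 genes, filled blue when lower and red when higher at an FDR of 0.05, and grey tiles count all peaks of the table; the lower member peaks sit mostly at the stronger iNKT peaks, apart from 1 weak Smad7 peak, and the DP member peaks lie around 0 with none passing.

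In DP cells no member peak passed in either direction. The 16 peaks had log2 fold changes from -0.83 to 0.87 in the authors' deposited table, with a median of 0.40 (0.00 over all DP peaks). Of these 16 peaks 11 were positive, as were 6610 of all 13450 DP peaks. Over all DP peaks 0.743% were lower and 0.483% higher (1.23% in either direction), so a count of 0 among 16 is near the background of the authors' deposited table. At an unadjusted p of at most 0.05, 3 of the 16 peaks were reached, where 12.7% of all DP peaks were in the authors' deposited table. The smallest FDR among them was 0.22, for the 3' UTR peak of Skil. By position the 18 peaks likewise held no call, and the 3 peaks in the 3' part of Smad3 had -1.41, 0.42 and 0.71 in the authors' deposited table (FDR 0.56, 0.65 and 0.42).

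No DP member peak of the 16 had a peak p at or under 1e-50, against 9.6% of all DP peaks in the authors' deposited table. Their median fold enrichment was 4.705, against 4.7 over all DP peaks in the authors' deposited table. Of all DP peaks within that bound 3.56% were lower, and of the weaker ones 0.444%, in the authors' deposited table. Tgfbr1 had 1 peak, a spliced one classed as 3' UTR (chr4:47406987-47410795), with a log2 fold change of -0.34 per the authors' deposited table (FDR 0.65, fold enrichment 3.78). Tgfbr2 had a 3' UTR peak of -0.23 (FDR 0.65) and a peak in exon 5 of 0.56 (FDR 0.52) in the authors' deposited table. Neither overlaps the Tgfbr2 peak that was higher in iNKT cells. Smad2 had the highest DP value of the members, 0.87 in a 3' UTR peak with a fold enrichment of 5.59 (FDR 0.65 in the authors' deposited table). Skil had 2 more peaks, both in exons, with values on either side of 0 (0.40, FDR 0.65, and -0.83, FDR 0.63, in the authors' deposited table). The 3 peaks reached at an unadjusted p of 0.05 had opposite signs, with 0.79 for Skil (FDR 0.22), 0.73 for a Ski 3' UTR peak (FDR 0.33) and -0.71 for a spliced Ski peak (FDR 0.24) in the authors' deposited table.

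Several members had overlapping peaks in the 2 cell types, which allows the 2 comparisons to be set side by side. An overlap of peaks does not show that the same base is methylated in both. Counting peaks of 1 strand that share 1 or more exonic bases, 8 pairs matched in 4 genes, which is 42.1% of the iNKT and 50% of the DP member peaks. The shares over all peaks were 42.7% in iNKT cells and 36.4% in DP cells. In these 8 pairs by symbol the iNKT value was negative in the authors' deposited table and 7 of them passed, while 7 of the 8 DP values were positive and none passed. Of all iNKT peaks 68.6% were negative and 19.8% were lower, and 6610 of all 13450 DP peaks were positive in the authors' deposited table. Counted by position, which drops the pair in Ctif and adds 2 Smad3 pairs named Aagab, 8 of 9 iNKT values were negative, all 8 passing, and 7 of 9 DP values were positive with none passing in the authors' deposited table. The test of the difference between cell types needs values per library and was not run, and 1 of the 8 pairs, named Smad7, lies in Ctif (-1.54 in iNKT cells and 0.28 in DP cells in the authors' deposited table). The iNKT comparison rests on 3 libraries of each kind per genotype and the DP comparison on 2, and the part of that difference, and of the protocol used for each cell type, was not tested.

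At the Ski site 2033 nt before the 3' end, where 300 nt were shared, the log2 fold change was -6.01 in iNKT cells and 0.50 in DP cells in the authors' deposited table. Its fold enrichment was 31.0 in iNKT cells and 4.63 in DP cells in the authors' deposited table. At the next Ski site the log2 fold change was -3.23 in iNKT cells and 0.73 in DP cells, with the enrichments in the other order (3.8 in iNKT cells and 10.8 in DP cells in the authors' deposited table). The third Ski pair, near the start of the gene, shared 181 nt and had -3.16 in iNKT cells and 0.20 in DP cells in the authors' deposited table. The fold enrichment was larger in iNKT cells in 2 of the 8 pairs by symbol and 3 of the 9 by position. Over all peaks its median was 8.32 in iNKT cells and 4.7 in DP cells in the authors' deposited table. Depth and protocol may differ between the cell types, and their part in these enrichments was not tested.

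The shared Smad2 site lies in 1 place but under 2 names of position. The peaks share 209 nt and end at the same base, yet the annotation calls the iNKT peak 5' UTR and the DP peak exon 2. Their log2 fold changes were -6.42 in iNKT cells and 0.39 in DP cells in the authors' deposited table (FDR 2.5e-12 and 0.65). At the Skil site, where 151 nt were shared, they were -4.16 in iNKT cells and 0.79 in DP cells in the authors' deposited table. For Smad7 only 31 nt were shared at each of 2 sites, with -4.84 in iNKT cells and 0.81 in DP cells in the last exon, and -4.40 in iNKT cells and -0.59 in DP cells in the 5' UTR, per the authors' deposited table. Of the 2 Smad3 sites named Aagab, the one farther from the 3' end shared 240 nt, with -3.73 in iNKT cells and 0.71 in DP cells in the authors' deposited table. The other shared 181 nt and ran the opposite way, with 1.02 in iNKT cells (FDR 0.30) and -1.41 in DP cells (FDR 0.56) in the authors' deposited table, neither of them passing.

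Both the 5' UTR and the exon class took different shares of the members' peaks in the 2 tables, and no test was run on these few peaks. Of the iNKT member peaks 7 were classed as 5' UTR, 3 as exon and 9 as 3' UTR, and of the DP member peaks 2, 7 and 7, in the authors' deposited table. The 5' UTR class thus held 36.8% of member peaks in iNKT cells and 12.5% in DP cells, against 14.7% of all iNKT peaks and 8.4% of all DP peaks in the authors' deposited table. The exon class held 15.8% in iNKT cells and 43.8% in DP cells, against 39.8% of all iNKT peaks and 45.9% of all DP peaks in the authors' deposited table. The shared Smad2 site counts as 5' UTR in iNKT cells and as exon in DP cells through its annotation alone. Most member peaks were 1 unbroken block, 18 of 19 in iNKT cells and 12 of 16 in DP cells. Their median exonic length was 211 nt in iNKT cells and 270 nt in DP cells, against 181 nt over all iNKT peaks and 241 nt over all DP peaks of the authors' deposited table.

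The deposited gene lists do not separate passing from other genes. The iNKT list holds Smad2, Smad3, Smad7, Ski and Skil, which are the 5 members with a negative peak. The DP list holds Tgfbr1, Tgfbr2, Smad7, Ski and Skil, none of which had a passing peak in the authors' deposited table. Presence on the DP list thus followed the sign of a peak and not its FDR.

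Outside the 8 genes, 88 genes of the pathway in 7 lists were counted in the same way. In iNKT cells 23 of the 49 genes with a peak (46.9%) had a lower peak and 4 also had a higher one, where 26.2% and 9.64% of all genes did. In every list a gene counts if any of its peaks is lower. The 49 genes had 104 peaks, against 1.85 peaks per gene over all iNKT genes. The part of the number of peaks in the gene shares of the lists was not tested. By peaks 37 of 104 (35.6%) were lower, against 19.8% of all iNKT peaks, and the median log2 fold change was -1.615 in the authors' deposited table. Of these 104 peaks 51 had a peak p of at most 1e-50, and 33 of the 51 were lower. Over all iNKT peaks 32.7% lay within that bound, and 53.4% of those were lower, in the authors' deposited table. The part of peak strength in the list counts was not tested. In DP cells 1 of 41 genes with a peak had a lower peak, Crebbp, and none a higher one, where 1.44% and 0.876% of all DP genes did.

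Ligands and their activators fell in iNKT cells at the TGF-beta 1 transcript itself. Tgfb1 had a lower 5' UTR peak of 687 nt with a log2 fold change of -3.44 per the authors' deposited table (FDR 1.3e-48). A second lower peak named Tgfb1 (-2.75 in the authors' deposited table) lies in its neighbour B9d2. Nrros, whose product anchors latent TGF-beta, had -4.60 in the 3' UTR and -3.21 in an exon in the authors' deposited table. Its most enriched peak, also in an exon (fold enrichment 86.6), did not pass (-0.01, FDR 0.76) in the authors' deposited table. Of the 3 lower genes of this list, 2 had a lower peak within their own bounds. The list had 5 lower peaks of 8, or 62.5% against 19.8% of all iNKT peaks. Its median was -2.865, against -0.98 over all iNKT peaks, in the authors' deposited table.

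Other receptors of the superfamily had no passing peak in either cell type, with 5 genes measured in iNKT cells and 3 in DP cells. Of all peaks 25.7% passed in iNKT cells and 1.23% in DP cells. The farthest values in iNKT cells were Acvr1, an activin and bone morphogenetic protein (BMP) type I receptor, at -3.66 (FDR 0.43) and Bambi, a decoy receptor, at 2.71 (FDR 0.093) in the authors' deposited table. The list's median was -0.553 in iNKT cells and -0.185 in DP cells, against -0.98 and 0.00 over all peaks, in the authors' deposited table. Among other Smads, Smad5 of the BMP branch was lower in iNKT cells (-3.75, FDR 0.0058) and Smad1 was not called (-2.23, FDR 0.42) in the authors' deposited table. Of 3 genes in that list 1 was thus lower (33.3%, against 26.2% of all iNKT genes), with a median of -1.785 in the authors' deposited table.

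Adaptors, ubiquitin enzymes and phosphatases had 2 lower genes of 9 in iNKT cells (22.2%, under the 26.2% of all iNKT genes). By peaks 13.3% were lower, under the 19.8% of all iNKT peaks. Their median was -0.713, against -0.98 over all iNKT peaks, in the authors' deposited table. The 2 lower genes were Smurf2, a ubiquitin ligase that Smad7 brings to the receptors, at -4.96 (FDR 0.0022), and Fkbp1a, a binding protein of type I receptors, at -4.75 (FDR 1.2e-06) in the authors' deposited table. Usp15, a deubiquitinase of the receptor, had the most negative value of the list, -6.09, without passing (FDR 0.17) in the authors' deposited table.

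Nuclear partners of Smads had 8 lower genes of 13 in iNKT cells (61.5%, against 26.2% of all iNKT genes). Of their 44 peaks 17 were lower (38.6%, against 19.8% of all iNKT peaks) and 3 were higher (against 5.84%). Their median was -1.72 in the authors' deposited table. Crebbp, a coactivating acetyltransferase, reached -6.22 and Ncor1, a corepressor, -5.97 in the authors' deposited table (FDR 7.9e-28 each). The higher peaks were in Runx3 (8.20), Fosl2 (7.05) and Ep300 (1.80) in the authors' deposited table, and each of these genes also had a lower peak. One of the lower peaks of this list, named Hdac1 (-0.93 in the authors' deposited table), lies in Lck. In DP cells Crebbp had the 1 lower peak of the lists, -1.09 in the authors' deposited table (FDR 0.034).

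The non-Smad branch had 4 lower genes of 5 in iNKT cells, where 26.2% of all iNKT genes had a lower peak. By peaks 4 of 12 (33.3%) were lower, against 19.8% of all iNKT peaks, with a median of -1.73 in the authors' deposited table. Traf4 had -4.17, Tab2 -3.16, Traf6 -2.73 and the p38 kinase gene Mapk14 -1.17 in the authors' deposited table. The lower Tab2 peak had a fold enrichment of 1.91, and no other Tab2 peak passed. Its 3' UTR peaks, with fold enrichments of 18.1 and 3.7, had -1.31 (FDR 0.18) and -0.90 (FDR 0.27) in the authors' deposited table. Map3k7, the kinase of this branch that Traf6 and Tab2 act on, had a peak of 1.67 that did not pass (FDR 0.66) in the authors' deposited table. Transcripts known to respond to TGF-beta had 5 lower genes of 9 (55.6%, against 26.2% of all iNKT genes). By peaks 8 of 16 were lower, against 19.8% of all iNKT peaks, with a median of -1.745 in the authors' deposited table. Myc, which TGF-beta represses in many cells, had -4.58, Pmepa1, a feedback inhibitor, -3.82, Id2 -2.25 and the integrin gene Itgae -2.10 in the authors' deposited table. The lower Id2 peak had a fold enrichment of 1.28. The other Id2 peak, with 88.8, did not pass (-0.50, FDR 0.37) in the authors' deposited table. The most enriched Pmepa1 peak (fold enrichment 384) did not pass either (-2.36, FDR 0.64) in the authors' deposited table. Junb had 2 lower peaks (-1.65 and -1.46) and a higher one (1.03) in the authors' deposited table. None of these genes had a passing DP peak.

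**Figure D4:**
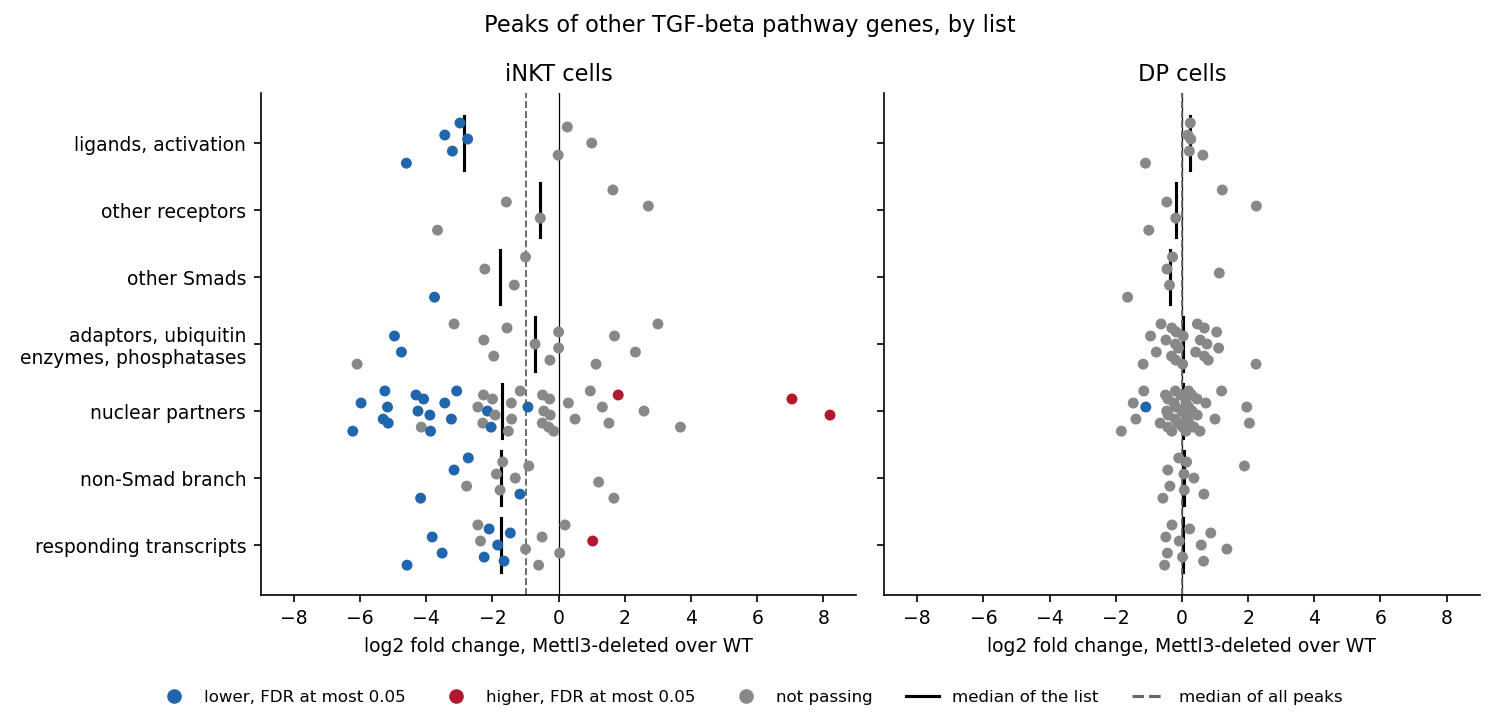
Log2 fold change in Mettl3-deleted over WT cells (horizontal axis, authors' values) of every peak of 7 lists of other TGF-beta pathway genes, with iNKT cells on the left and DP cells on the right on the same scale. Each point is 1 peak (its vertical offset has no meaning), blue when lower and red when higher at an FDR of 0.05, the short black line is the list's median and the dashed line the median of all peaks; 37 of 104 iNKT peaks and 1 of 99 DP peaks are blue.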

How the data were processed

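The submitters' processing notes list build mm10 and, with no stated roles, HOMER 4.9.1, STAR 2.6.0a, RSEM 1.3.0, Trim Galore 0.6.5 and FastQC 0.11.5. Settings of the peak caller (exomePeak, by the name of the tables), and whether it pooled replicates, were not stated in any source read. Per the labels' protocols, polyadenylated RNA was cut to about 150 nt, and both m6A-seq and a low-input version based on LACE-seq are named without saying which cell type had which, so protocol and cell type cannot be told apart. Per the file headers, the authors deposited for each peak a p-value, a fold enrichment as a linear ratio, a log2 fold change between genotypes, and log10 p and FDR, treated as scores; a symbol and position class come from their annotation.

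Rows repeated with the same strand and blocks were kept 1 time (24 removed in the iNKT table, 5 in the DP table). No model was refitted, since the files hold no values per library; depth is unknown. Peaks were placed in genes with the RefSeq gene table (GRCm38.p6, the assembly of mm10), which held all 8 genes; it has no strand, so strand came from the promoter table (4 of 8 genes) or from the peaks. Matching used shared exonic bases on 1 strand, computed in Python in place of the planned bedtools; with no genome, the planned motif counts over whole peaks were replaced by a search of RefSeq promoter windows. Calls and overlaps were checked on simulated data. The text names every member and, in each other list, up to 4 passing genes with the largest change, or any gene of a list with none; Ep300, Hdac1, Junb, Usp15, Smad1 and Map3k7 were named after their values were seen. The members, lists and alternatives were chosen with earlier results of these data known. The labels do not say whether replicates are separate animals or pools. Calculations ran in pandas 2.3.3 and numpy 2.4.6 under Python 3.11.15, and plots in matplotlib 3.10.9. Sequences of members on some chromosomes, and some results of single genes, are not reported here.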

Additional observations from a re-analysis of the deposited data

How the results depend on the processing

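Of 57 recomputed counts, 53 stayed within 1.5 times the reported one. They cover FDR bounds of 0.01 and 0.1, a change of at least 2-fold, repeated rows kept, member peaks by position, fold enrichment of at least 2, a peak FDR of at most 0.001 and, for matching, whole intervals. The 10 lower iNKT peaks became 9 with the enrichment bound and 12 by position, and stood at 10 under the other bounds. The DP counts stayed at 0 throughout. A DP count of 0 cannot change when a bound is made stricter or the sign is turned, and such counts are among the 53. With the sign of the iNKT table turned, the members would have 1 lower peak, in 1 gene, and 10 higher peaks. Requiring 50% of both peaks to be shared left 4 of the 8 matched pairs, and counting pairs by position, an alternative chosen after seeing the data, gave 9. No paired analysis was possible because the tables carry no values per replicate; for the same reason no replicate could be left out. Depth per library is unknown, so how far it sets the contrast between cell types was not tested.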
